A study of Mus musculus with 3 samples.

Results

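The 10 genes described here encode surface or secreted proteins through which an antigen-presenting cell stimulates or restrains a T cell, namely Cd40, Cd80, Cd86, Cd83, Cd274, Pdcd1lg2, Icosl, Havcr2, Lgals9 and Cd200r1. They were listed by name with earlier results of these data known, and all 10 were found among the 22238 genes measured in all 3 libraries. The set mixes ligands with receptors: Cd40, Havcr2 and Cd200r1 are receptors on the myeloid cell itself, and Cd83 is a surface protein of maturing antigen-presenting cells.

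A T cell that meets its antigen needs a second signal from the presenting cell. CD80 and CD86 give it by binding CD28, and the same ligands are taken up by the inhibitory receptor CTLA-4. ICOSL engages ICOS on T cells already activated, and CD40 receives CD40L from helper T cells and in turn licenses the presenting cell. PD-L1 (encoded by Cd274) and PD-L2 (encoded by Pdcd1lg2) bind PD-1 and restrain the T cell, galectin-9 (encoded by Lgals9) is a lectin that binds TIM-3 (encoded by Havcr2), and CD200R1 is an inhibitory receptor of myeloid cells for CD200. In experimental autoimmune encephalomyelitis (EAE), an autoimmune disease of the mouse spinal cord that serves as a model of multiple sclerosis, T cells that entered the tissue are restimulated there by antigen-presenting cells.

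RNA was sequenced from cells sorted from wild-type (WT) female C57BL/6J mice of 10 to 12 weeks in which EAE had been induced with a myelin oligodendrocyte glycoprotein peptide in complete Freund's adjuvant and with 250 ng pertussis toxin given 2 and 24 hours later. Cells were taken on days 14 to 15, and all 3 populations came from immunized animals, so no library shows the level in a healthy mouse. Bone marrow monocytes (CD45+ CD11b+ Ly6C-high Ly6G- CD11c-) were pooled from 13 mice over 2 experiments. Spinal cord monocytes (CD45+ CD11b+ CD64+ Ly6C-high Ly6G-) and monocyte-derived antigen-presenting cells, hereafter APCs (CD45+ CD11b+ CD64+ Ly6C-low or negative, Ly6G-), were sorted as separate gates from the spinal cords of 18 mice in all, over 3 experiments. The bone marrow gate used no CD64 and removed CD11c+ cells, whereas neither applies to the spinal cord gates. Spinal cords were digested with collagenase D and DNase I and run on a Percoll gradient. Bone marrow was flushed from the bones and enriched for monocytes with a kit. Between the bone marrow and spinal cord libraries, tissue and handling cannot be told apart. One label of the APC library names the bone marrow, while its title and tissue label name the spinal cord, and the latter was used.

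Each population is 1 library of pooled animals, so no spread between animals can be measured and no p-value is given. Values of the 3 libraries are given throughout in the order bone marrow monocytes, then spinal cord monocytes, then APCs. The deposited estimated reads came to 33280643, 27283795 and 28209589. Levels are TPM, the reads of a gene per transcript length as a share of the library, rescaled to a common total over the shared genes, with 95% Wilson intervals, and fold changes carry 98% intervals. Both cover counting error only. A gene was called where its whole interval lay beyond a 2-fold change and its level exceeded 3 TPM in at least 1 of the 2 libraries. The labelled cell types were checked against their markers. Ly6c2 stood at 5205, 3602 and 1067 TPM, Ccr2 at 1629, 299 and 139 TPM, and Itgax, which encodes CD11c, at 0.247, 48.9 and 121 TPM, and all 8 monocyte and APC markers were present in the spinal cord libraries. Microglia markers summed to 13.9, 162 and 441 TPM, T cell markers to 1.15, 64.5 and 98.7 TPM, and markers of mature dendritic cells to 0.827, 49.4 and 491 TPM. Neutrophil markers summed to 7711, 1200.4 and 1343 TPM, B cell markers to 9.14, 15.5 and 31.4 TPM, conventional dendritic cell markers to 40.8, 21.3 and 28.3 TPM and natural killer cell markers to 0.0671, 3.81 and 8.01 TPM. Single genes carried some sums. S100a8 at 4471 TPM and S100a9 at 2244 TPM made up most of the neutrophil sum in the bone marrow. Ly6g was at 2.57, 1.71 and 1.64 TPM, Ngp at 186, 24.3 and 157 TPM, and Retnlg at 1.77, 16.7 and 57.9 TPM. Cd22 was at 27.4 TPM of the B cell sum in APCs, while Cd79b was at 8.54, 2.55 and 3.26 TPM. Flt3 was at 37.8 TPM of the conventional dendritic cell sum in the bone marrow. Clec9a was at 0.108, 4.38 and 7.40 TPM, and Zbtb46 and Itgae were over 3 TPM in APCs alone. The part of such cells in the values below was not tested. In a pool of this kind, fewer cells of a type and less RNA per cell cannot be told apart.

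Between the bone marrow and the spinal cord, most of these genes differed widely. Between the 2 spinal cord populations none was called, as was so for most genes tested. In the first step, spinal cord against bone marrow monocytes, 8 of the 10 genes were called higher and 0 were called lower, where 13.6% of 10072 genes tested were called higher and 11.0% lower. All 10 passed 3 TPM in this step, Cd83, Cd274 and Pdcd1lg2 through the spinal cord library alone, which favoured their calls as higher. The median log2 fold change of the 10 genes was 3.22, against -0.17 over all genes tested. From these same libraries the authors had reported Cd40, Cd80, Cd86, Cd83 and Cd274 as high in both spinal cord populations. Since the list was made with such results known, its count and median describe the 10 genes and test nothing. In the second step, APCs against spinal cord monocytes, 0 of the 10 were called in either direction. The background was 1.94% higher and 1.66% lower of 9734 genes (2.38% and 3.33% where reads were divided by effective length). A count of 0 in 10 genes is near that background and does not set the 10 apart. Both steps use the same spinal cord monocyte library. The levels of the 10 genes together came to 229, 1250.1 and 1026 TPM.

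**Figure D1:**
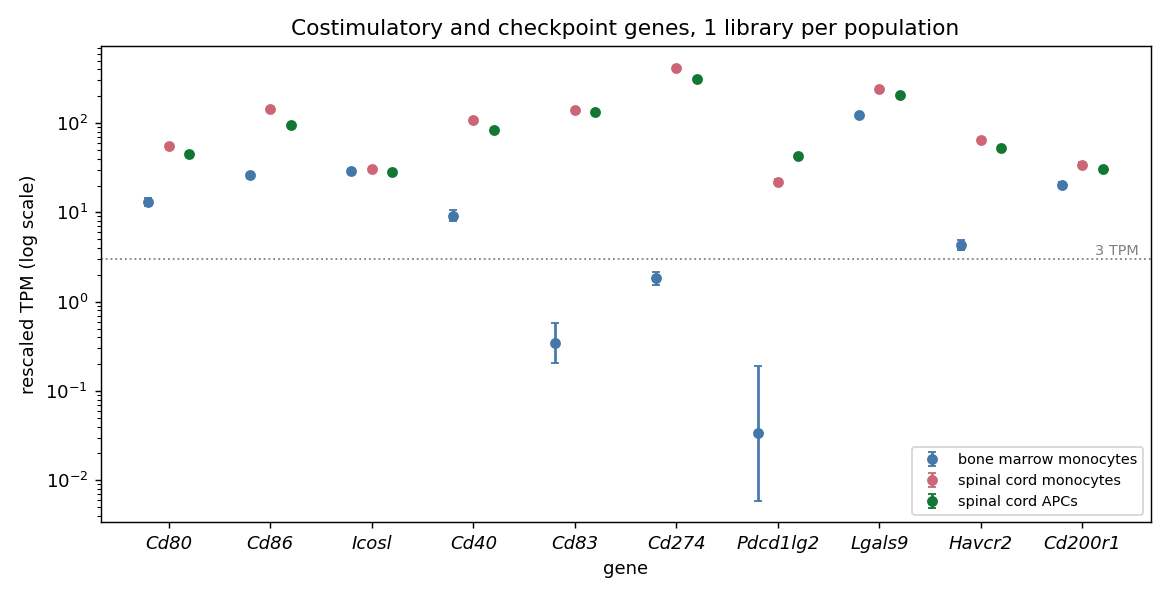
Level of each gene in rescaled TPM on a log axis, 1 point per library, with 95% counting intervals. The spinal cord points of every gene lie within 2-fold of each other, with Pdcd1lg2 the farthest apart at 21.8 and 42.7 TPM, and the bone marrow points of Cd83, Cd274 and Pdcd1lg2 lie under the dotted line at 3 TPM.

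Cd80 and Cd86, the genes of the CD28 ligands, were present in every library and several-fold higher in the spinal cord. Cd80 (GRCm38, chromosome 16, 38455561 to 38496335, plus strand) measured 13.04, 55.6 and 45.2 TPM. Cd86 (chromosome 16, 36603869 to 36666081, minus strand) measured 26.0, 143 and 94.3 TPM. Bone marrow monocytes were lowest for both genes, and the intervals of the 3 libraries did not overlap for either. In the first step the log2 fold change was 2.62 for Cd80 (98% interval 2.44 to 2.81) and 2.73 for Cd86 (2.63 to 2.84), and both genes were called higher. APCs differed from spinal cord monocytes by -0.24 for Cd80 (-0.36 to -0.13) and by -0.47 for Cd86 (-0.53 to -0.40), neither of them called. Other scales gave values outside these counting intervals. Cd80 was at 2.31 in the first step on reads divided by effective length. Cd86 was at -0.59 in the second step on log2 TPM with 1 TPM added.

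Per length, Cd86 exceeded Cd80 in every library. The ratio of Cd86 to Cd80 was 1.99 in bone marrow monocytes (95% interval 1.78 to 2.24), 2.56 in spinal cord monocytes (2.43 to 2.70) and 2.09 in APCs (1.97 to 2.21). The intervals of bone marrow monocytes and APCs overlapped, while that of spinal cord monocytes lay above both. These ratios carry the effective lengths, which for Cd80 were 1458, 1687 and 1805 bases and for Cd86 2090, 2030 and 2289 bases. The part of length in the differences between ratios was not tested.

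Icosl, the gene of the ICOS ligand, was the most even of the set. It lies on chromosome 10 (78069302 to 78083913, plus strand) and measured 29.3, 30.6 and 28.1 TPM, with overlapping intervals for all 3 libraries. In the first step its log2 fold change was 0.36 (0.24 to 0.49), in the second it was -0.11 (-0.24 to 0.01), and the gene was called in neither. Per length, Icosl stood just above Cd86 in the bone marrow, and Cd86 stood above Icosl in both spinal cord libraries. The 3 stimulatory ligands Cd80, Cd86 and Icosl summed to 68.3, 229 and 168 TPM.

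Cd40 and Cd83, which respond to and accompany the activation of antigen-presenting cells, were low in the bone marrow and high in both spinal cord libraries. Cd40 (chromosome 2, 165055627 to 165072948, plus strand), the receptor for CD40L, measured 9.16, 109 and 82.8 TPM. The first step gave a log2 fold change of 3.70 (3.45 to 3.96), which was called, and the second one of -0.39 (-0.51 to -0.27), which was not. Cd83 (chromosome 13, 43784775 to 43803132, plus strand) was close to undetected in bone marrow monocytes, with 14 reads and 0.345 TPM (95% interval 0.205 to 0.579). In the spinal cord it reached 139 TPM, from 5234 reads, in the monocytes and 133 TPM, from 6192 reads, in the APCs. The log2 fold change of the first step was 8.94 (8.14 to 9.91), and the gene was called higher. Cd83 is the gene whose direction in the second step turned on the scale: it was 0.10 on reads (0.03 to 0.16), 0.02 on reads divided by effective length and -0.06 on log2 TPM. Its effective length was 1.15 times as long in the APC library as in that of spinal cord monocytes.

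Cd274 and Pdcd1lg2, the PD-1 ligand genes, lie side by side on chromosome 19, with 22823 bases between them, and both were nearly silent in bone marrow monocytes. Cd274 (29367455 to 29388095, plus strand) measured 1.84 TPM from 132 reads in the bone marrow, 413 TPM from 26776 reads in the spinal cord monocytes and 308 TPM from 21655 reads in the APCs. It was the highest of the 10 genes in both spinal cord libraries, ranking 406 of 22238 genes in spinal cord monocytes and 460 in APCs, whereas it ranked 9868 in bone marrow monocytes. The log2 fold change of the first step was 8.12 (7.83 to 8.42), about 278-fold. In the second step it was -0.45 (-0.48 to -0.42), which excluded 0 and stayed within 2-fold.

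Pdcd1lg2 (29410919 to 29471161, plus strand) was counted with 1 read in bone marrow monocytes, with 580 reads and 21.8 TPM in spinal cord monocytes, and with 1247 reads and 42.7 TPM in APCs. The log2 fold change of the first step was 8.89 (6.90 to 12.39), a wide interval that nevertheless lay far beyond 2-fold, and the gene was called higher. Resting on 1 bone marrow read, this value ran from 4.46 to 9.40 over the alternatives. Scaled for depth, the plain ratio of spinal cord to bone marrow monocytes was 797.5 (95% counting interval 142.6 to 31553). Pdcd1lg2 was the only gene of the 10 at a higher level in APCs than in spinal cord monocytes on both the read and the rescaled TPM scale, by 0.96 on the log2 scale of reads (0.79 to 1.13). The interval reached across 2-fold, so the gene was not called. This second-step value lay between 0.94 and 1.05 over every alternative run for the fold change. In TPM as deposited, not rescaled to the shared genes, Pdcd1lg2 was at 18.6 and 42.7 TPM, more than 2-fold apart. On that scale Cd83 was higher in APCs too, at 118.6 and 133.3 TPM. Markers of several cell types moved in the same direction between these libraries. Of 8 mature dendritic cell markers, 4 and 7 were over 3 TPM in spinal cord monocytes and APCs. In APCs 6 were called higher, beside 1.94% of all genes. Ccr7 was at 3.46 and 99.8 TPM, Ccl22 at 4.76 and 233 TPM, and Lamp3 at 0.0168 and 0 TPM. The authors propose Ccl22 and Ccr7 as genes that mark these APCs themselves. They held conventional dendritic cells in the APC gate to be unlikely, given very low Zbtb46, and took the CD64+ gate to exclude such cells. Of 6 conventional dendritic cell markers, 5 passed 3 TPM in this step. Of these 2 were called higher and 0 lower, beside 1.94% and 1.66% of all genes. The 2 were Zbtb46, at 0.496 and 3.37 TPM, and Itgae, at 0.637 and 3.24 TPM. Both passed through the APC library alone, which favoured their calls. All 9 microglia markers were called higher in APCs too, at 162 and 441 TPM in sum. The authors could not exclude a small number of microglia in the APC population. T cell markers summed to 64.5 and 98.7 TPM, with 0 called. The part of such cells in the Pdcd1lg2 value was not tested.

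The ratio between the PD-1 ligands differed between the spinal cord libraries by more than counting error. The ratio of Cd274 to Pdcd1lg2 was 18.9 in spinal cord monocytes (17.4 to 20.6) and 7.21 in APCs (6.81 to 7.64). In bone marrow monocytes it was 54.5 with an interval from 9.62 to 2170, which overlaps that of spinal cord monocytes. Cd274 made up 94.99% of the summed PD-1 ligand TPM in spinal cord monocytes and 87.8% in APCs. Set against Cd86, Cd274 went from 0.0706 times its level in bone marrow monocytes (0.0586 to 0.0846) to 2.89 times in spinal cord monocytes (2.81 to 2.98) and 3.27 times in APCs (3.16 to 3.37). In bone marrow monocytes both CD28 ligands thus stood above both PD-1 ligands, and in the spinal cord libraries Cd274 stood above Cd80 and Cd86.

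**Figure D2:**
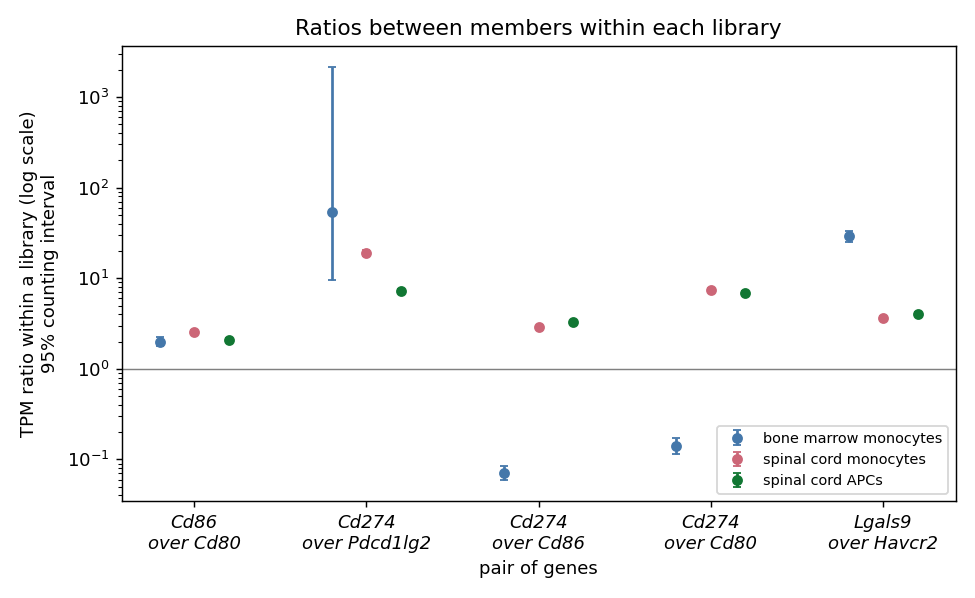
Ratio of TPM between pairs of genes within each library on a log axis, with 95% counting intervals, and a line at equal levels. Cd274 lies below Cd86 and Cd80 in bone marrow monocytes and above both in the spinal cord libraries, and its ratio to Pdcd1lg2 is 18.9 in spinal cord monocytes and 7.21 in APCs.

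Havcr2 and Lgals9, which encode TIM-3 and galectin-9, were both expressed in all libraries at different levels. Havcr2 (chromosome 11, 46454935 to 46481255, plus strand) measured 4.28, 65.3 and 52.0 TPM. It was called higher in the first step, with a log2 fold change of 4.24 (4.01 to 4.47), and differed by -0.36 in the second (-0.44 to -0.27). Lgals9 (chromosome 11, 78962974 to 78984946, minus strand) was the most abundant of the 10 genes in the bone marrow, and measured 124, 239 and 209 TPM. Its log2 fold change of 1.23 in the first step (1.16 to 1.30) was called by a small margin, and the call was lost when libraries were scaled by total reads, where it was 1.07. On log2 TPM the difference was 0.94, under 2-fold and outside that interval. In the second step Lgals9 differed by -0.19 (-0.26 to -0.13). Lgals9 exceeded Havcr2 29.1-fold per length in bone marrow monocytes (25.4 to 33.5), 3.66-fold in spinal cord monocytes (3.51 to 3.83) and 4.01-fold in APCs (3.83 to 4.21).

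Cd200r1, like Icosl, was called in neither step. The gene (chromosome 16, 44765736 to 44794978, plus strand) measured 20.3, 34.2 and 30.2 TPM. Its log2 fold change of 1.03 in the first step had an interval from 0.87 to 1.19, which crossed 2-fold, and that of the second was -0.21 (-0.36 to -0.06). Cd200r1 has near paralogs that can share short reads with it. Of these, Cd200r4 measured 3.97, 18.1 and 17.8 TPM and was called higher in the first step by 2.50 (2.18 to 2.83), while Cd200r2 had 0, 1 and 7 reads.

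**Figure D3:**
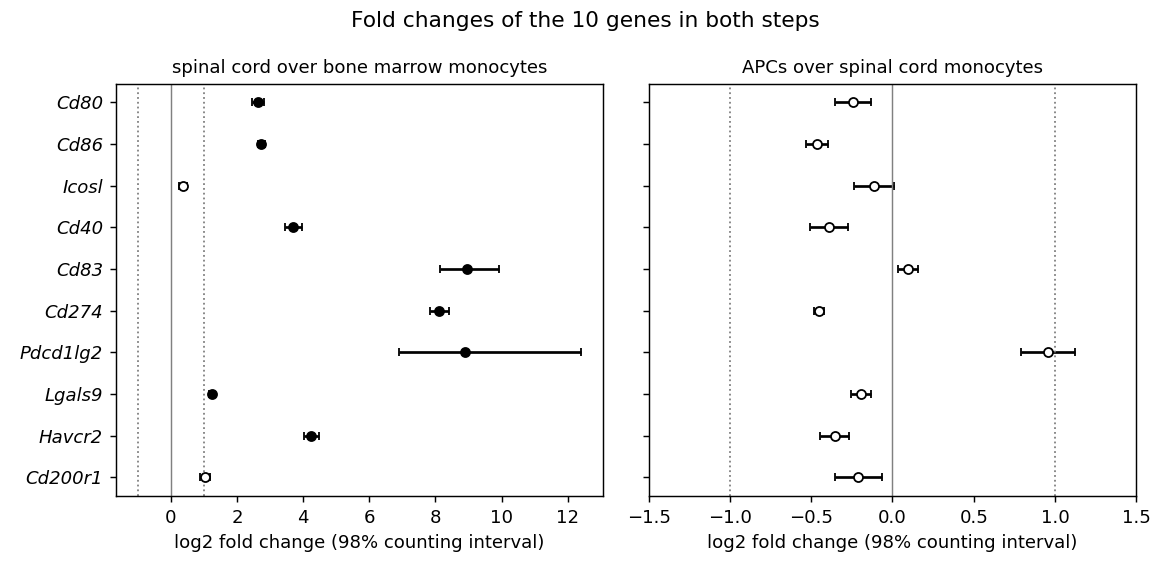
Log2 fold change of each gene with its 98% counting interval for both steps, filled where called, with dotted lines at 2-fold and different axis ranges. The left value of Pdcd1lg2 rests on 1 bone marrow read and depends on the read added to each count. On the right all points lie within 2-fold, with Pdcd1lg2 nearest to the line.

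Ordered by level within each library, the set turned over between the tissues. In bone marrow monocytes the order ran from Lgals9 through Icosl, Cd86, Cd200r1, Cd80, Cd40 and Havcr2 to Cd274, Cd83 and Pdcd1lg2, and no 2 neighbours had overlapping intervals. In spinal cord monocytes Cd274 was first, followed by Lgals9, Cd86, Cd83, Cd40, Havcr2, Cd80, Cd200r1, Icosl and Pdcd1lg2. There the intervals of Cd86 and Cd83 overlapped, and those of Cd200r1 and Icosl barely met. In APCs Cd83 stood above Cd86, and Pdcd1lg2 above Cd200r1 and Icosl. Cd80 and Pdcd1lg2 overlapped in APCs, as did Cd200r1 and Icosl. The spread between animals is unknown, so these orders describe the 3 libraries.

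Set directly against bone marrow monocytes, APCs had 7 of the 10 genes called higher and 0 lower, where 14.0% of 10190 genes were called higher and 11.7% lower. Of those called, Cd83, Cd274 and Pdcd1lg2 passed 3 TPM through the APC library alone. The genes not called were Icosl, Lgals9 and Cd200r1. Lgals9 was at 1.05 (0.98 to 1.13) and Cd200r1 at 0.84 (0.67 to 0.999). Icosl was at 0.26 on reads (0.14 to 0.39) and at -0.06 on log2 TPM. Cd274 was at 7.68 (7.40 to 7.98) and Cd40 at 3.33 (3.07 to 3.59). The members' median was 2.86, against -0.17 over all genes tested.

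The sequences just upstream of the start site are shown for 3 genes that were called higher together in spinal cord monocytes, the PD-1 ligand genes and Havcr2. Each run is the 250 bases before the RefSeq start (GRCm38.p6), 5′ to 3′ on the plus strand. Capitals mark matches to the motifs searched on both strands, which were the kappa B consensus, GAS (TTCNNNGAA), an ISRE-like repeat, AP-1 (TGANTCA) and the PU.1 core (GAGGAA).
Cd274, chr19:29367188-29367437: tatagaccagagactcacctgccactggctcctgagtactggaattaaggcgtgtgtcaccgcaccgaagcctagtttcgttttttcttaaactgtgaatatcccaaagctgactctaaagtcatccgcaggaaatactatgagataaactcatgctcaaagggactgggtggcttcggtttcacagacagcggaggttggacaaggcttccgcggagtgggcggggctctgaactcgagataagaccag
Pdcd1lg2, chr19:29410669-29410918: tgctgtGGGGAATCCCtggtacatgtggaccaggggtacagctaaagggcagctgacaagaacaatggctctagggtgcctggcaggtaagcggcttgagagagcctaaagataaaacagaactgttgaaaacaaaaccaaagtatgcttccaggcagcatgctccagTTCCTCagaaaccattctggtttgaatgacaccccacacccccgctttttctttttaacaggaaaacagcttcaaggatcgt
Havcr2, chr11:46454681-46454930: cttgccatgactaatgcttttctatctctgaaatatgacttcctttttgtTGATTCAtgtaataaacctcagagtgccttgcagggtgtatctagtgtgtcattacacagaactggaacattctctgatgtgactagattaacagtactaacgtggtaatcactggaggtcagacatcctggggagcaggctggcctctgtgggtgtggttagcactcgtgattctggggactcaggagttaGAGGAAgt

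RefSeq windows were matched for 6 of the 10 genes (Cd80, Cd274, Pdcd1lg2, Icosl, Havcr2 and Lgals9), and Cd40, Cd86, Cd83 and Cd200r1 were not matched. In windows of 300 bases, 250 before and 50 after the start, the Pdcd1lg2 window held a kappa B match at -244 and a PU.1 core on the opposite strand at -82. The Havcr2 window held an AP-1 match at -200 and a PU.1 core at -8. None of the 5 motifs was in the Cd274 window. An AP-1 match stood at -42 in the Cd80 window, a kappa B match at -111 in that of Icosl, and ISRE-like matches at -55 and 15 and PU.1 cores at -244 and -199 in that of Lgals9. Of all 32851 windows, 8.46% held kappa B, 8.30% GAS, 3.44% the ISRE-like repeat, 7.81% AP-1 and 28.3% the PU.1 core, so such matches are frequent and are given as a description of the letters only. Icosl had the most GC-rich upstream run of the 6, at 68.8% against a median of 52.4% over all windows, while Cd274, Pdcd1lg2 and Havcr2 were at 50.4%, 48.4% and 44.8%.

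Other genes of the same pathways were described from lists that were written down by name. Among 7 further B7 family and butyrophilin genes, 1 passed 3 TPM. This was Vsir, which encodes the inhibitory B7 protein VISTA and was high in the bone marrow. It measured 481, 169 and 167 TPM, and was called lower in the first step by -1.38 (-1.42 to -1.34). Vsir thus went the other way from the PD-1 ligand genes in the first step. Ildr2, the next highest, stayed under 3 TPM in every library, with 0.951 and 1.585 TPM in the spinal cord libraries.

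Of 28 other contact ligands and receptors of antigen-presenting cells, 21 passed 3 TPM in the first step, of which 9 were called higher and 3 lower, beside 13.6% and 11.0% of all genes tested, so that the count called lower was near the background. Of those called higher, Nectin2, Slamf7, Slamf9 and Lag3 passed through the spinal cord library alone. Of those called lower, Btla and Nectin1 passed through the bone marrow library alone. The filter favoured these calls. The median of the 21 genes was 0.30, against -0.17 over all genes tested. Genes of the SLAM family, adhesion receptors of leukocytes, made up 3 of the 4 with the largest interval bound of the fold change. Btla measured 37.9, 1.77 and 7.53 TPM and was called lower in the first step by -4.17 (-4.56 to -3.82). Slamf7 measured 0.652, 134 and 154 TPM and was called higher in the first step by 7.80 on the log2 scale (7.24 to 8.46). Slamf8 measured 14.8, 217 and 164 TPM, and Slamf9 1.07, 20.6 and 39.7 TPM. Lag3, a coinhibitory receptor best known from T cells, had 1 read in the bone marrow and 6.80 and 23.5 TPM in the spinal cord libraries. It was 1 of 3 genes of this list called higher in the second step, by 1.77 (1.52 to 2.02), and 0 were called lower, beside 1.94% and 1.66% of all genes. The others, Btla and Nectin1, were under 3 TPM in spinal cord monocytes and passed in this step through the APC library alone. Lgals3 and Lgals1, galectins of high abundance, were called in neither step, at 1592, 1471 and 1302 TPM and at 587, 418 and 442 TPM.

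Of 6 TNF family costimulators, 2 passed 3 TPM. Tnfsf9, the ligand of 4-1BB on activated T cells, measured 1.45, 35.4 and 48.7 TPM and was called higher in the first step by 4.87 (4.31 to 5.51). The filter favoured this call, since Tnfsf9 passed through the spinal cord library alone. Tnfsf14, which encodes LIGHT, measured 18.002, 31.3 and 21.7 TPM and was not called in either step.

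The T cell partners of these ligands were present in the spinal cord libraries as well. Of 9 such genes, 4 passed 3 TPM in the first step. They passed through the spinal cord library alone, so their calls as higher were nearly fixed by the filter and are given as values. In the second step 6 passed, of which 1 was called higher, beside 1.94% of all genes. Ctla4, which takes up CD80 and CD86, had 0 reads in the bone marrow and 7.41 and 16.2 TPM in the spinal cord libraries. Against a floor of 3 reads in the bone marrow library, Ctla4 was at least 109-fold higher in spinal cord monocytes. Icos, the receptor of ICOSL, had 0 reads there, 6.30 and 10.6 TPM in the spinal cord libraries, and by the same floor was at least 166-fold higher in the monocytes of that tissue. Tigit measured 0.340, 7.37 and 12.1 TPM. Cd200, the ligand of CD200R1, measured 0.155, 7.08 and 12.6 TPM and was called higher in the second step as well, by 1.31 on reads (1.04 to 1.60). Its effective length was 1413 and 2044 bases in the spinal cord libraries, and its TPM values were less than 2-fold apart. Cd28 and Pdcd1 stayed under 3 TPM in all libraries. Of 13 T cell markers, 0, 8 and 11 were over 3 TPM in the 3 libraries, with Cd3e at 0.0389, 6.74 and 11.3 TPM and Cd4 at 0, 5.27 and 10.5 TPM. Their part in the levels of these partner genes was not tested.

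Of 18 signalling and turnover partners of CD40, the PD-1 ligands, TIM-3 and CD200R1, 17 passed 3 TPM, of which 5 were called higher and 1 lower in the first step, beside 13.6% and 11.0% of all genes. In the second step 0 were called in either direction, beside 1.94% and 1.66% of all genes, so that this count too was near the background. Traf1, an adaptor of TNF receptors, measured 0.683, 53.4 and 37.1 TPM, the first step coming to 6.77 on the log2 scale (6.01 to 7.68). In that step Traf1 passed 3 TPM through the spinal cord library alone, which favoured its call. Traf6, an adaptor that CD40 recruits, measured 19.7, 48.7 and 34.5 TPM. Dok2, an adaptor below CD200R1, measured 5.15, 68.5 and 30.0 TPM and differed by -0.99 in the second step (-1.13 to -0.86), an interval that crossed 2-fold, and was not called there. Fyn, a kinase that binds TIM-3, measured 12.1, 37.2 and 39.7 TPM. Hmgb1, a nuclear protein that is also a TIM-3 ligand, was called lower in the first step, at 409, 186 and 348 TPM. Birc3 stood at 163, 282 and 97.95 TPM and was not called on reads, at -0.53 in the second step (-0.60 to -0.46), and its effective length was 967 and 1992 bases in the spinal cord libraries.

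**Figure D4:**
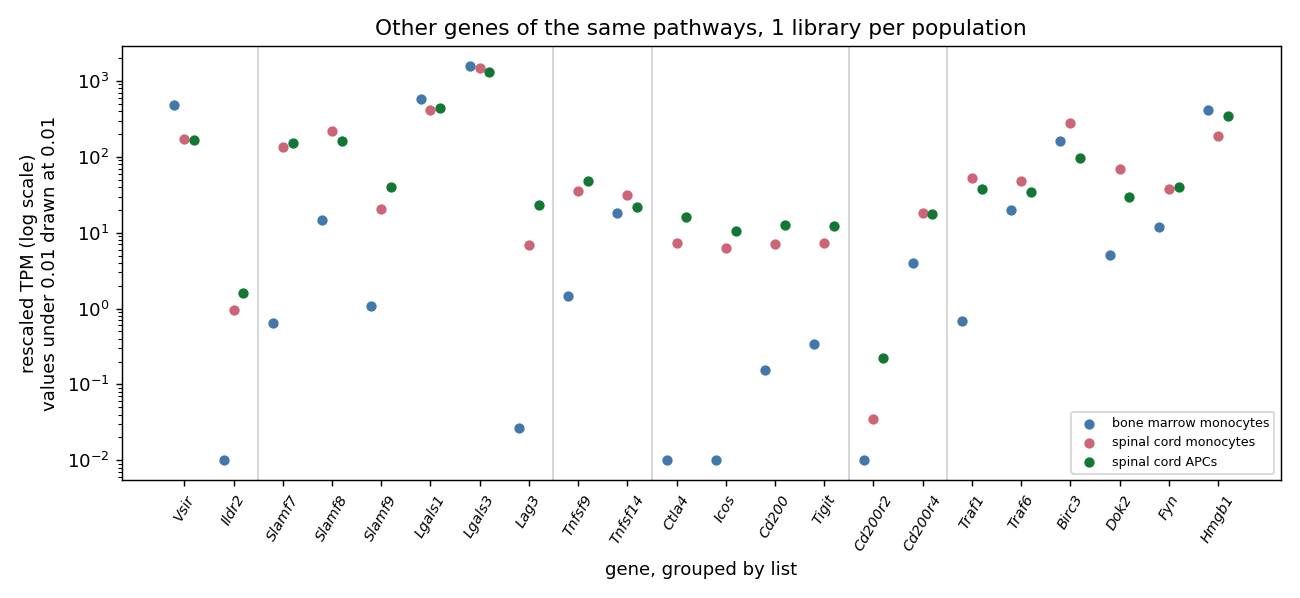
Level of the named pathway genes in rescaled TPM on a log axis, 1 point per library, with grey lines between the lists and values under 0.01 drawn at 0.01. Vsir is highest in bone marrow monocytes, and Ctla4 and Icos, with 0 reads there, are at 6.30 to 16.2 TPM in the spinal cord.

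For each member the closest genes were those with the smallest distance in the pair of log2 fold changes among genes of similar mean level, which rests on 3 libraries. Cd274 was nearest to Spint1 (distance 0.13) and Ralgds (0.17), and Cd83 to Basp1 (0.23) and Cxcl3 (0.50). Cd40 was nearest to Chd7 (0.029), Havcr2 to Ell2 (0.048) and Ciart (0.075), and Cd86 to Ccdc86 (0.034) and Gla (0.044). Pdcd1lg2 was nearest to Ctla4 (0.11) and Nr4a3 (0.20), where Ctla4 and Pdcd1lg2 have 0 and 1 reads in bone marrow monocytes. Cd80 was nearest to Tmem140 and Phf11a, Icosl to Nudt18 and Tmem41b, Lgals9 to Sav1 and Uck2, and Cd200r1 to Dnajb9 and Zfp292, all within 0.055.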

How the data were processed

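RNA from 3 sorted populations was sequenced by the authors as 50 bp paired-end reads, 1 library of pooled mice per population. Per the labels and the study's methods, the authors quantified reads with Salmon 0.14.1 on GENCODE vM22 transcripts (mm10) and summed them per gene. The deposited files hold estimated counts and TPM per gene. The APC file lists 22242 genes and the monocyte files 54432, so the transcript sets differ, and which set the APC file used is not given in the sources used here. How far this moved TPM and effective lengths between files was not tested. The 22238 genes common to all were kept, and TPM was rescaled over them (84.9%, 85.3% and 100.0% of the deposited TPM). Estimated counts were rounded, 1 read was added, and pairs of libraries were scaled by median-of-ratios size factors. The log2 fold change and its percentiles 1 and 99 came from gamma posteriors, after the definition of GFold, the authors' tool. The calculation was tested on simulated data. No test between populations was possible. Calculations used scipy 1.17.1 under Python 3.11.15, and TMM factors came from edgeR 4.0.16. Gene positions are from GENCODE M21 (GRCm38), whose identifiers and versions matched 99.0% of the common genes, and upstream sequences from RefSeq.

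The 10 genes and all lists were chosen with earlier results of these data known. All 10 were to be named. Of each pathway list, every called gene was named when at most 4 were called, otherwise the 4 with the largest bound of the fold change, plus the 2 with the highest TPM, and for each member the 2 nearest genes within 4-fold of its mean TPM. For Cd40, 1 nearest gene is given and the other is not reported here. Btla, Nectin1, Nectin2, Cd28 and Pdcd1 were added after their values were seen. Alternatives varied the scaling, the length correction, the TPM filter, the added read, the call rule and an assumed spread between libraries.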

Additional observations from a re-analysis of the deposited data

How the results depend on the processing

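Each population has 1 library, so no library could be left out and the spread between animals is unknown. No paired analysis was possible because each population has 1 library and the results come from no test. The count of members called higher in spinal cord monocytes against bone marrow monocytes was 5 in place of 8 when a coefficient of variation of 0.4 between libraries was assumed, with Cd80, Cd86 and Lgals9 no longer called, and 7 to 9 under the others. Lgals9 lost its call with total reads and with an assumed coefficient of 0.2, and Cd200r1 gained one with a plain 2-fold rule and with size factors from genes over 3 TPM, where it was 1.21. That last scaling was chosen after seeing the data. No member was called between APCs and spinal cord monocytes under any alternative run, and 5 to 8 were called higher in APCs against bone marrow monocytes.

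Total reads shifted the median log2 fold change by -0.16 in the first step and size factors from genes over 3 TPM by 0.18. No call of a member reversed. On log2 TPM with 1 TPM added, every member had a lower first-step value than on reads. Cd80 was at 2.01 against 2.62, Cd86 at 2.41 against 2.73 and Icosl at 0.06 against 0.36. Over all genes of the first step, calls were 1369 higher and 1104 lower, 2591 and 1211 without the TPM filter, 905 and 460 with the assumed coefficient of 0.2, and 627 and 228 with 0.4. They were 1239 and 1394 with total reads and 1371 and 1587 over all genes of the monocyte libraries, where lower calls outnumbered higher ones, and 1516 and 855 with size factors from genes over 3 TPM. In the second step they were 189 and 162, then 389 and 288, 87 and 35, and 43 and 14 under those settings, 232 and 324 with reads divided by effective length, and 331 and 293 with a plain 2-fold rule. For APCs against bone marrow monocytes they were 1430 and 1196, then 2875 and 1330, 979 and 503, and 727 and 230. The cause was not tested, beyond the wider intervals and the added genes that these settings bring by construction.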
